A study of Homo sapiens with 4 samples.

Results

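Genes of the ADAM, ADAMTS-like and cathepsin families were measured on 4 Affymetrix whole-transcript arrays, each holding RNA of a different culture of human prostate cancer cells. The members were chosen by symbol: every gene with a named probe whose symbol follows the pattern of the ADAM, ADAMTS, ADAMTSL, serpin or cathepsin families, leaving out CTSB. This gave 37 of the 14006 named genes, namely 18 ADAM, 5 ADAMTSL and 14 cathepsin genes. The serpins and the ADAMTS proteinases are not analysed here, as 0 of them matched a probe with a name, so the measured set holds proteases and ADAMTS-like matrix proteins but none of the serpin inhibitors. Each of the 37 had 1 probe, so no value could be set against a second probe of the same gene.

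All 4 cultures were grown in RPMI1640 medium with fetal bovine serum and antibiotics. PC3 was derived from prostate cancer that had spread to bone and grows without androgen; LNCaP was derived from a lymph node deposit and depends on androgen. The cultures PC3-H and PC3-L were separated from PC3 with the antibody IIH6C4, which binds the laminin-binding glycan of alpha-dystroglycan; their source names give a high glycan level to PC3-H and a low one to PC3-L, and their free-text descriptions give the reverse. LNCaP has the label high and LNCaP-AI, an androgen-independent derivative obtained in charcoal-stripped serum, the label low; its description also names medium conditioned by perineural cells. The description of LNCaP calls its glycan level moderate and the line androgen-independent, against its other labels. Glycan levels here follow the source names. Low motility and invasion are stated for PC3-H and LNCaP, and high for the other two. No culture has a replicate, so no difference between 2 arrays has an error or a p-value.

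ADAMs are membrane-anchored proteins with a metalloprotease and a disintegrin domain. The active ones cut the outer parts of growth factors, cytokine receptors and adhesion molecules off the cell surface, a step called shedding, while other ADAMs lack a working zinc site and act in adhesion. ADAMTS-like proteins keep the matrix-binding part of the ADAMTS family, lack its protease domain and bind fibrillin fibres. Cathepsins are mostly lysosomal proteases, and in tumours some of them are secreted and cut matrix.

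Values are probe intensities in arbitrary units, as deposited. They support comparison of 1 gene between arrays, not of different genes. A gene was counted in a pair of arrays when its higher value reached the 40th percentile of that array, which lay between 33.6 and 34.8. A difference was taken on the log2 scale after adding 1, and called past 2-fold when it reached 1 in either direction; the folds below are on that scale, which understates the change of dim genes. Of the 37 members 29 reached the 40th percentile on at least 1 array. The other 8 (ADAM2, ADAM18, ADAM20, ADAM30, ADAM32, ADAMTSL1, ADAMTSL3 and CTSS) lay between 20.5 and 33.8 everywhere. The heat map of all members shows both the dim genes and those that vary.

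**Figure D1:**
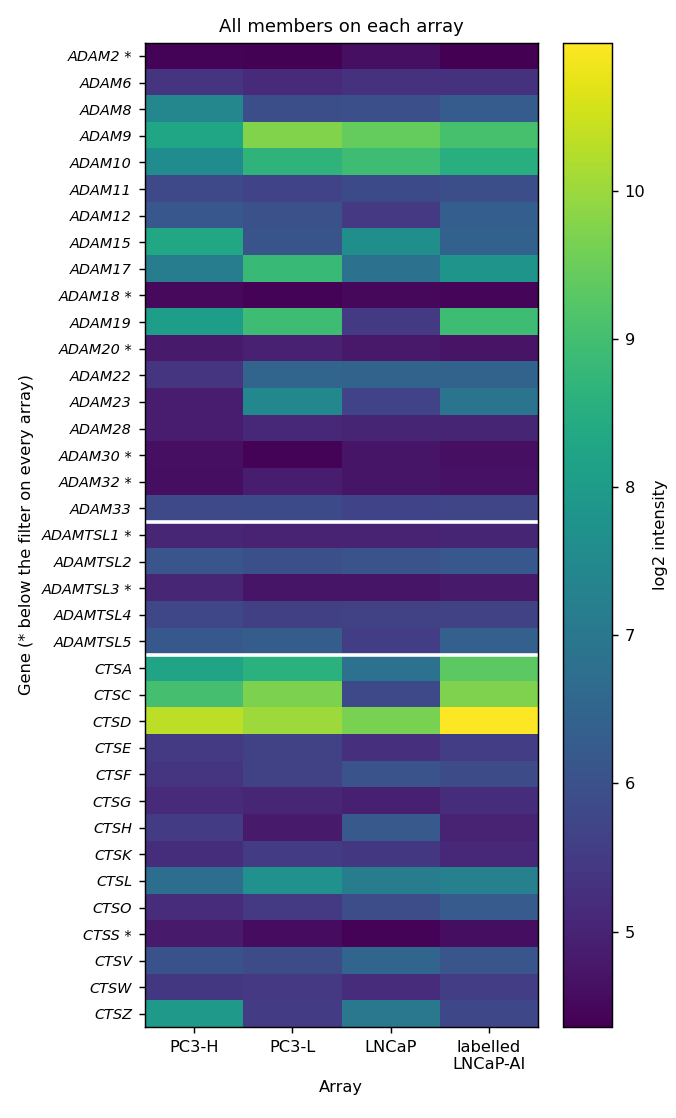
Log2 intensity (colour scale) of the 37 members (rows, by family) on the 4 arrays (columns); an asterisk marks the 8 genes below the 40th percentile on every array. The 6 members with the widest range are, in falling order, CTSC, ADAM19, ADAM23, CTSA, CTSZ and ADAM15.

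The array labelled LNCaP-AI goes against its line label at line markers, and this touches each comparison that uses it. Of 4 measured LNCaP markers (KLK2, KLK3, FOLH1 and SPDEF) 4 were past 2-fold lower on it than on LNCaP. Among the 3 past the filter when it was set against PC3-L, 0 were past 2-fold. The summed intensity of the list was 435 on PC3-H against 187 on PC3-L. That difference follows SPDEF (306 on PC3-H and 56.5 on PC3-L), while KLK2, KLK3 and FOLH1 were within 2-fold in the PC3 pair. On LNCaP the sum was 3613, against 212 on the array labelled LNCaP-AI. Of 8 measured PC3 markers 7 were past 2-fold higher on it than on LNCaP, and 1 was past 2-fold from PC3-L: CXCL8, at 46.9 on it against 497 on PC3-L and 22.3 on LNCaP. It is therefore called the array labelled LNCaP-AI.

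Promoters of 5 members are shown. ADAM15 and CTSZ were taken because their intensities had the same order over the arrays. CTSA, CTSD and ADAM10 are shown because each holds a CACGTG E-box, the core of the element bound by the lysosomal regulators TFEB and TFE3, and CTSA and CTSD were both past 2-fold lower on LNCaP in the LNCaP pair. CTSF and ADAM30 also hold this E-box and are not shown. RefSeq (GRCh38.p14) gave a promoter window for 25 of the 37 members. Each sequence below is the 250 bases before the gene's start, 5′ to 3′ on the gene's strand, with the E-box in capitals: ADAM15 at chr1:155051066-155051315 on the plus strand, CTSZ at chr20:59007255-59007504 on the minus strand, CTSA at chr20:45891085-45891334 on the plus strand, CTSD at chr11:1763928-1764177 on the minus strand and ADAM10 at chr15:58749708-58749957 on the minus strand.
ADAM15: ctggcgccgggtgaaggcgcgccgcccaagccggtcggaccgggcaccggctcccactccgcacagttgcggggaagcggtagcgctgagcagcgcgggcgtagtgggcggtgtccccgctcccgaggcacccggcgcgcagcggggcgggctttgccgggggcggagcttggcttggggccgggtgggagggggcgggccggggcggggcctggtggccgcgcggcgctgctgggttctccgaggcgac
CTSZ: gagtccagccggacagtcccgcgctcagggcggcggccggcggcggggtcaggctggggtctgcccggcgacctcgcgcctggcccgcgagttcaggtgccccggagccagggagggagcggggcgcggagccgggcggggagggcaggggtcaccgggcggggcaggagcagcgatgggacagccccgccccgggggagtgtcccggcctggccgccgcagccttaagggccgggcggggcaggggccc
CTSA: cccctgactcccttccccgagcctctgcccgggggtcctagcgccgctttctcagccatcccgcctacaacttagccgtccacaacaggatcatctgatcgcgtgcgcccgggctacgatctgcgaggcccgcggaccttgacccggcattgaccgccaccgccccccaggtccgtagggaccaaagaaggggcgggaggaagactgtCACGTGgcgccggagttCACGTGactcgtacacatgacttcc
CTSD: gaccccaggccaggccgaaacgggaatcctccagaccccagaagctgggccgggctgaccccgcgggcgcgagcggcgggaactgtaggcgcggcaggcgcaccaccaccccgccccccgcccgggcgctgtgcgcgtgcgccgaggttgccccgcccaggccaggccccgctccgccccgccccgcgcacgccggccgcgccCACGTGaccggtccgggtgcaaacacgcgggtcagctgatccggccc
ADAM10: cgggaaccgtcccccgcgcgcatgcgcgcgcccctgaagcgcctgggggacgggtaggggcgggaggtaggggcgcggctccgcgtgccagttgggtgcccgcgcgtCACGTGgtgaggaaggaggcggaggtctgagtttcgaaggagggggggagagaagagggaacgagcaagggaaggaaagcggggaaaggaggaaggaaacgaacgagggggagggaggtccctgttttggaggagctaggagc

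The E-box was searched as CACGTG, which reads the same on both strands, and the AP-1 motif as TGAGTCA or TGACTCA, which are each other's reverse complement. An E-box was present in 5 of the 25 member windows (ADAM10, ADAM30, CTSA, CTSD and CTSF), or 20%, and in 6.34% of all 35116 windows of the same length. CTSA held it at 42 and at 25 bases before the start, and CTSD at 47 bases before it. ADAM10 held it at 143 bases before the start. CTSF held it at 123 and at 51 bases before the start, and was 66.1 on LNCaP against 60.1 on the array labelled LNCaP-AI. ADAM30, below the filter on every array, held it at 117 bases. The AP-1 motif was in 0 of the 25 member windows and in 4.2% of all windows. The member windows had a median GC content of 73.6%, against 58% for all windows. ADAM15 and CTSZ shared a high GC content (79.6% and 81.2%) and held neither motif in this window. A match is a description of letters and no evidence of binding.

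Among the active ADAM sheddases, PC3 cells labelled low for the glycan (PC3-L) were set against those labelled high (PC3-H). Of 9 past the filter in this pair 3 were past 2-fold higher on PC3-L (ADAM9, ADAM10 and ADAM17) and 2 lower (ADAM8 and ADAM15). Their median log2 difference was 0.24, against -0.02 over all 11126 genes counted. Over all members 8 of 29 were past 2-fold, or 27.6%, against a background of 12.3% of all genes counted in this pair. Of these 8, 5 were higher (17.2% of 29, background 8.58%) and 3 lower (10.3%, background 3.77%).

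ADAM17, which releases tumour necrosis factor and several ligands of the epidermal growth factor receptor, had an intensity of 142 on PC3-H against 456 on PC3-L, and 113 on LNCaP against 221 on the array labelled LNCaP-AI. Both arrays with the low glycan label were above both with the high label, and PC3-L was at least 2-fold above each of the other 3. The difference was 3.19-fold in the PC3 pair and 1.95-fold, just under the threshold, between the array labelled LNCaP-AI and LNCaP. ADAM17 was also the only member past 2-fold between the array labelled LNCaP-AI and PC3-L, where it was 2.06-fold lower; with a pseudocount of 16, quantile normalization or removal of a length and density trend it was within 2-fold there.

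ADAM10, the main sheddase of Notch receptors and of the amyloid precursor protein, was 192 on PC3-H against 406 on PC3-L, and 486 on LNCaP against 374 on the array labelled LNCaP-AI. PC3-H was the low array, and the other 3 lay close together. The PC3 difference was 2.11-fold, and it was within 2-fold after quantile normalization (log2 difference 0.96) and after removal of the length and density trend (0.79). ADAM9, a widely expressed sheddase, had the same order of low and high arrays in the PC3 pair: 311 on PC3-H against 851 on PC3-L, and 685 on LNCaP against 539 on the array labelled LNCaP-AI. Its intensity was 2.73-fold higher on PC3-L than on PC3-H. For both genes the LNCaP pair had the opposite sign, with log2 differences of -0.38 for ADAM10 and -0.35 for ADAM9, and neither of these was past 2-fold.

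ADAM15, which carries an integrin-binding motif in its disintegrin domain, was 321 on PC3-H and 204 on LNCaP, against 67.7 on PC3-L and 86.0 on the array labelled LNCaP-AI. Both arrays with the low label were over 2-fold below both with the high label. The difference was 4.69-fold in the PC3 pair and 2.36-fold in the LNCaP pair. ADAM8, a sheddase known from leukocytes and invasive tumours, was high on 1 array only, with 171 on PC3-H against 62.0 on PC3-L, and 63.4 on LNCaP against 77.8 on the array labelled LNCaP-AI. Its intensity was 2.73-fold lower on PC3-L than on PC3-H and within 2-fold in the LNCaP pair.

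ADAM19, a sheddase of neuregulins, gave the largest ADAM difference. It was 263 on PC3-H against 489 on PC3-L, and 44.7 on LNCaP against 494 on the array labelled LNCaP-AI. LNCaP stood below the other 3 arrays, and the array labelled LNCaP-AI was within 1.01-fold of PC3-L. The difference was 10.8-fold in the LNCaP pair and 1.86-fold in the PC3 pair. ADAM12, a sheddase found in stroma and in some carcinomas, was 71.7 on PC3-H against 64.3 on PC3-L, and 43.7 on LNCaP against 80.9 on the array labelled LNCaP-AI, within 2-fold throughout. ADAM28 and ADAM33 were past the filter and ranged over less than 2-fold, as did the pseudogene ADAM6.

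Of the ADAMs without a working zinc site, ADAM22 and ADAM23 are surface receptors of the secreted LGI proteins and are known best from neurons. ADAM23 was 29.5 on PC3-H and 51.7 on LNCaP, against 177 on PC3-L and 120 on the array labelled LNCaP-AI. Both arrays with the low label were at least 2-fold above both with the high label, by 5.83-fold in the PC3 pair and 2.30-fold in the LNCaP pair. On PC3-H it lay under the 40th percentile, near the floor of the array, where folds are compressed. ADAM22 was 41.0 on PC3-H and lay between 88.4 and 91.6 on the other 3 arrays. Its 2.20-fold difference in the PC3 pair was within 2-fold with a pseudocount of 16 (log2 difference 0.92) and with the length and density trend removed (0.72). ADAM11, the third gene of this group past the filter, lay between 52.0 and 61.9. The group's other 3 measured genes, ADAM2, ADAM18 and ADAM32, are known from the germ line and were dim on each array.

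Of 5 measured ADAMTS-like genes, ADAMTSL2, ADAMTSL4 and ADAMTSL5 were past the filter. In any pair of arrays 0 of these 3 were past 2-fold, where between 2.79% and 12.3% of all genes were. With 3 genes this is near the background and is not read as a result about the family. ADAMTSL5 had the widest log2 range, 0.81, against a median of 0.56 over all genes. It was 73.2 on PC3-H against 79.3 on PC3-L, and 47.2 on LNCaP against 83.7 on the array labelled LNCaP-AI. ADAMTSL2 lay between 63.3 and 71.0 and ADAMTSL4 between 48.5 and 54.7.

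**Figure D2:**
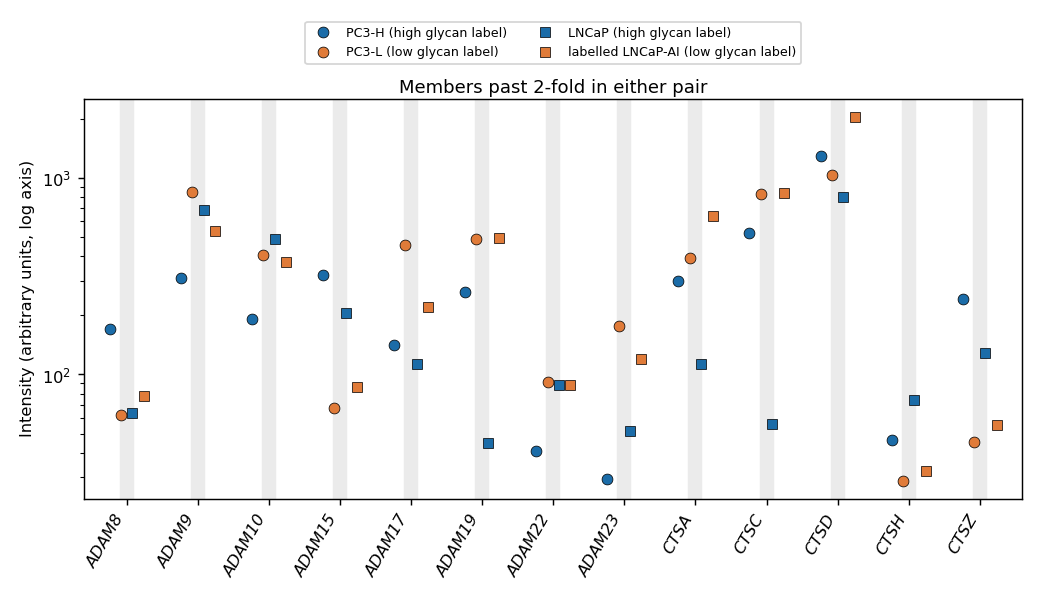
Intensity (log axis, arbitrary units) of the 13 members past 2-fold in the PC3 pair or the LNCaP pair; each point is 1 array, circles are PC3 cultures and squares the cultures labelled LNCaP, blue has the high and orange the low glycan label. For ADAM15 and CTSZ both orange points lie below both blue ones, and for ADAM19, CTSA and CTSC the blue square stands below the other 3.

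Of the pairs named by the design, the LNCaP pair held more cathepsin differences past 2-fold than the PC3 pair. It sets the derivative labelled androgen-independent against the line it was labelled as coming from. There 5 of 13 cathepsins past the filter were past 2-fold (38.5%, background 10.6%). CTSA, CTSC and CTSD were higher on the array labelled LNCaP-AI, and CTSH and CTSZ lower. In the PC3 pair 1 of 13 was past 2-fold, CTSZ (7.69%, near the background of 12.3%). Whether the families differ between the pairs was not tested. Over all members 8 of 28 were past 2-fold in the LNCaP pair, or 28.6%, against a background of 10.6%. Of these, 5 were higher (17.9%, background 5.45%) and 3 lower (10.7%, background 5.13%).

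CTSC, a dipeptidase that activates serine proteases of immune granules, had the widest range of all members. It was 522 on PC3-H against 824 on PC3-L, and 56.1 on LNCaP against 841 on the array labelled LNCaP-AI. LNCaP alone was low, 14.8-fold below the array labelled LNCaP-AI and 9.17-fold below PC3-H. CTSZ, a carboxypeptidase also called cathepsin X, was 241 on PC3-H against 45.2 on PC3-L, and 129 on LNCaP against 55.6 on the array labelled LNCaP-AI. Both arrays with the low label were below both with the high label, by 5.23-fold in the PC3 pair and 2.29-fold in the LNCaP pair. This is the order of arrays seen for ADAM15, which lies on another chromosome. CTSH, an aminopeptidase of lysosomes, was 46.6 on PC3-H against 28.7 on PC3-L, and 74.2 on LNCaP against 32.4 on the array labelled LNCaP-AI. Its 2.25-fold difference in the LNCaP pair was within 2-fold with a pseudocount of 16 (log2 difference -0.90).

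The remaining cysteine cathepsins showed smaller differences. CTSL, a broad endopeptidase, was 109 on PC3-H against 209 on PC3-L, and 145 on LNCaP against 153 on the array labelled LNCaP-AI, a 1.91-fold difference in the PC3 pair that was past 2-fold with the length and density trend removed (log2 difference 1.01). Whether its probe separates CTSL from its pseudogene copies was not tested. CTSO, which the naming rule did not take and which was added after its values were seen, was 37.0 on PC3-H and 76.7 on the array labelled LNCaP-AI, 2.04-fold apart, with 44.7 on PC3-L and 60.7 on LNCaP. CTSF, CTSK, the osteoclast collagenase, CTSV and CTSW, known from T and natural killer cells, stayed within 2-fold between all arrays. CTSS, the antigen-processing cathepsin of myeloid cells, did not reach the filter on any array.

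CTSD, the main aspartic protease of lysosomes, was 1298 on PC3-H against 1033 on PC3-L, and 803 on LNCaP against 2045 on the array labelled LNCaP-AI. The last was highest, 2.54-fold above LNCaP and 1.98-fold above PC3-L. The PC3 pair had the opposite sign, with a log2 difference of -0.33. CTSE, the other aspartic cathepsin, lay between 38.1 and 49.6. CTSA, a serine carboxypeptidase that also protects neuraminidase and beta-galactosidase in the lysosome, was 300 on PC3-H against 391 on PC3-L, and 113 on LNCaP against 636 on the array labelled LNCaP-AI. LNCaP was the low array, 5.56-fold below the array labelled LNCaP-AI, and the PC3 pair differed by 1.30-fold. CTSG, the serine protease of neutrophil granules, lay between 30.9 and 37.1.

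**Figure D3:**
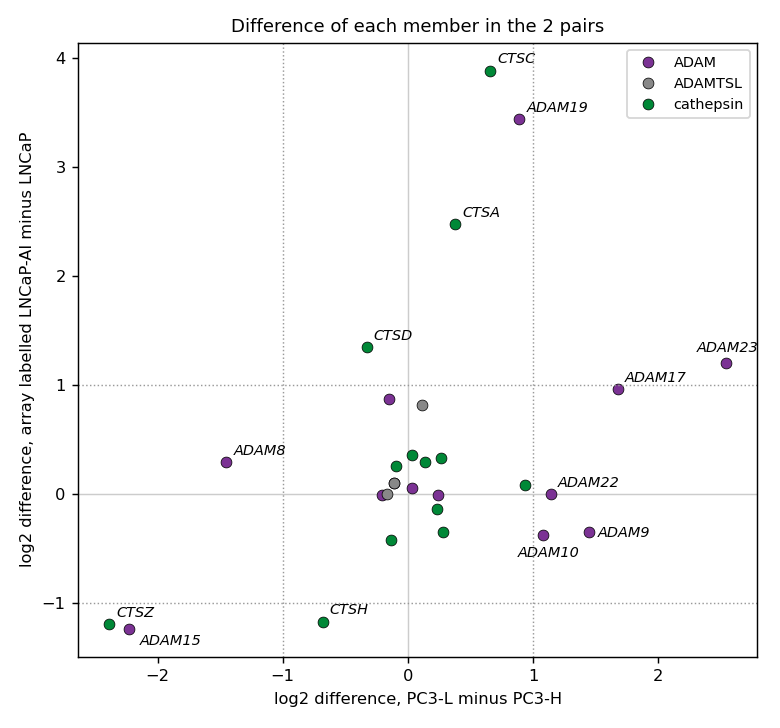
Log2 difference of each member past the filter in the PC3 pair (x axis) and in the LNCaP pair (y axis), coloured by family, with dotted lines at 2-fold; the pairs share no array. ADAM15 and CTSZ lie past 2-fold lower on both axes, ADAM23 past 2-fold higher on both, and CTSC, ADAM19 and CTSA are past it only on the y axis.

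Of the 13 members past 2-fold in either pair, 9 had 1 of the patterns over the arrays given here, and ADAM9, ADAM10, CTSD and CTSH had none of them. LNCaP was at least 2-fold below the other 3 arrays for 3 members (ADAM19, CTSA and CTSC) of 29, against 1.66% of all genes. Both arrays with the low glycan label were at least 2-fold below both with the high label for 2 members (ADAM15 and CTSZ), against 0.843% of all genes, and at least 2-fold above them for 1 (ADAM23), against 1.42%. PC3-H stood 2-fold or more above the other arrays for ADAM8 (background 1.21%) and below them for ADAM22 (background 0.791%), and PC3-L above them for ADAM17 (background 0.791%). Counted without a fold limit, both low-label arrays were above both high-label arrays in 10 of 29 members, or 34.5%, where 20.5% of all genes were, and below them in 5, or 17.2%, where 20.6% were. The second share is near its background. The 10 were ADAM17, ADAM19, ADAM22, ADAM23, ADAMTSL5, CTSA, CTSC, CTSE, CTSL and CTSW, several of them by small margins. The 5 were ADAM6, ADAM15, ADAMTSL4, CTSH and CTSZ. In 0 members was LNCaP 2-fold or more above the other 3 arrays (background 1.93%), PC3-L below them (0.0869%), or the array labelled LNCaP-AI above them (0.374%) or below them (0.0434%).

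The counts by glycan label rest on which PC3 culture is the low one. With PC3-H taken as low and PC3-L as high, as the free-text descriptions have it, both low arrays were above both high ones in 5 of 29 members, or 17.2% (background 19.9%), namely ADAM8, ADAM12, ADAMTSL2, CTSD and CTSG. They were below them in 4, or 13.8% (background 17.9%), namely ADAM9, ADAM10, ADAM28 and CTSK. A gap of 2-fold or more was then found in 0 members above (background 0.0782%) and 0 below (background 0.113%), so the patterns of ADAM15, CTSZ and ADAM23 hold under the source names only. Their intensities on each array are not touched by this.

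At the line markers other than CXCL8, the array labelled LNCaP-AI lay nearer to PC3-L than to LNCaP. Single members were mixed: ADAM9, ADAM17, CTSL and CTSO were nearer to LNCaP, and ADAM15, ADAM19, CTSC and CTSZ to PC3-L. By 2-fold calls, 8 of 28 members differed between the array labelled LNCaP-AI and LNCaP (background 10.6%). Between the array labelled LNCaP-AI and PC3-L 1 of 28 members was past 2-fold, or 3.57%, near the background of 2.79%. That member was lower (background 1.96%), and 0 were higher (background 0.832%). The 3 members for which LNCaP was 2-fold or more below PC3-H and PC3-L alike, namely ADAM19, CTSA and CTSC, were within 2-fold of PC3-L on it, and 0 were within 2-fold of LNCaP; among all genes with this pattern 188 of 228 were within 2-fold of PC3-L. Whether the values of the LNCaP pair belong to androgen independence or to a PC3-like culture cannot be told apart. The 2 arrays with the high label, PC3-H against LNCaP, differed past 2-fold in 7 of 28 members, or 25%, against a background of 9.95%. ADAM8, ADAM19, CTSA and CTSC were higher on PC3-H (4 of 28, background 4.49%), and ADAM9, ADAM10 and ADAM22 lower (3 of 28, background 5.46%). PC3-L against LNCaP gave 8 of 28 members past 2-fold, or 28.6% (background 11.7%), with ADAM17, ADAM19, ADAM23, CTSA and CTSC higher (background 7.24%) and ADAM15, CTSH and CTSZ lower (background 4.51%). These 8 differ from those of the LNCaP pair, which shares the LNCaP array, only by ADAM17 in place of CTSD. Set against PC3-H, the array labelled LNCaP-AI gave 7 of 28, or 25% (background 7.33%), with ADAM22, ADAM23, CTSA and CTSO higher (background 3.98%) and ADAM8, ADAM15 and CTSZ lower (background 3.35%).

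**Figure D4:**
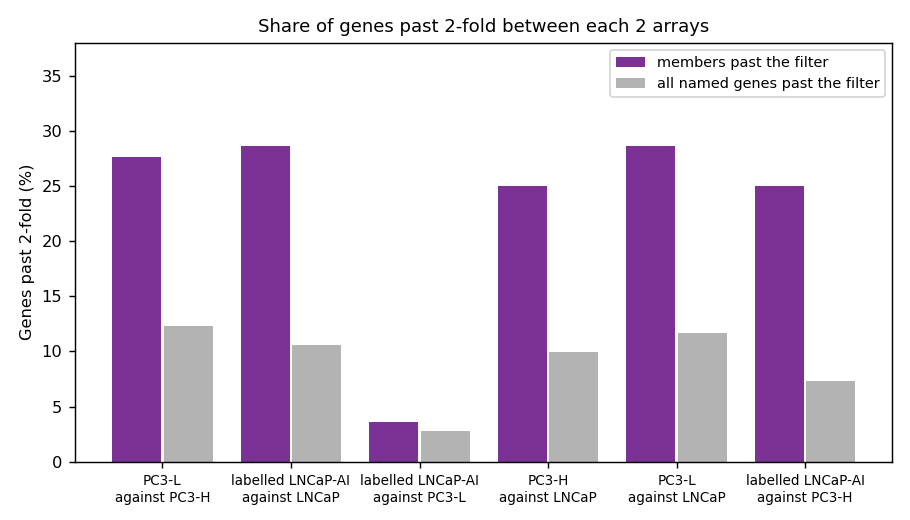
Percent of genes past 2-fold between each 2 of the 4 arrays, for members (purple) and for all named genes (grey) past the filter. The share of members lay between 25% and 28.6% in 5 pairs and was 3.57% between the array labelled LNCaP-AI and PC3-L; bars that share an array are not independent.

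Range over the 4 arrays summarises the spread of the members. The median range of the 29 members was 0.93 on the log2 scale, against 0.56 for 11509 genes past the filter. It reached 2-fold in 14 members (48.3%, against 23.2% of all genes) and 4-fold in 7 (24.1%, against 4.69%). The other 15 members past the filter had log2 ranges between 0.16 and 0.93.

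By the smallest distance between centred log2 values over the 4 arrays, among 539 other genes with a range of at least 4-fold, the profile of CTSC was nearest to CD44 (Euclidean distance 0.29), AXL (0.40) and FBN2 (0.44). That of ADAM19 was nearest to MSN (0.27), FBN2 (0.32) and CNN2 (0.37), and that of ADAM23 to ARHGAP18 (0.20), CEP170P1 (0.32) and SLK (0.33). CD44 was 239 on PC3-H against 318 on PC3-L, and 23.9 on LNCaP against 297 on the array labelled LNCaP-AI. With 4 arrays such likeness is a description only.

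The partner lists below are read against the shares of all genes past 2-fold, 8.58% higher and 3.77% lower in the PC3 pair and 5.45% and 5.13% in the LNCaP pair. Of 11 listed cofactors that escort or regulate ADAM10 and ADAM17, 11 were measured. In the PC3 pair 2 were past 2-fold higher on PC3-L (TSPAN5 and TSPAN14) and 3 lower (TSPAN15, TSPAN33 and RHBDF2), with a median of -0.30 against -0.02 for all genes. In the LNCaP pair 0 were higher and 2 lower (TSPAN15 and TSPAN33), with a median of 0.30 against 0.00. TSPAN15, a tetraspanin that directs ADAM10 to cadherin substrates, was 229 on PC3-H against 39.99 on PC3-L, and 118 on LNCaP against 33.5 on the array labelled LNCaP-AI, so both low-label arrays were below both high-label ones. TSPAN14, another ADAM10 partner, was 64.0 on PC3-H against 291 on PC3-L, and 171 on LNCaP against 211 on the array labelled LNCaP-AI. Like ADAM10, it was low on PC3-H. TSPAN33 was 116, 48.5, 90.5 and 38.8 on PC3-H, PC3-L, LNCaP and the array labelled LNCaP-AI. RHBDF2, the ADAM17 escort iRhom2, was 139 on PC3-H against 68.7 on PC3-L, and 61.7 on LNCaP against 54.2 on the array labelled LNCaP-AI. Its 2.01-fold difference in the PC3 pair lay at the threshold, and other settings of the processing were not run for the partner lists.

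Of 28 listed substrates of ADAM shedding 22 were measured. In the PC3 pair 2 of 21 were higher and 6 lower past 2-fold (median -0.29). HBEGF, a growth factor ligand released mainly by ADAM17, was 388 on PC3-H against 62.3 on PC3-L, and 42.4 on LNCaP against 42.8 on the array labelled LNCaP-AI. CXCL16, a membrane chemokine released by ADAM10, was 251 on PC3-H against 43.2 on PC3-L, and 156 on LNCaP against 57.7 on the array labelled LNCaP-AI. EPGN was 110 on PC3-H and between 21.1 and 22.0 elsewhere. In the LNCaP pair 4 of 19 were higher and 2 lower (median 0.09); the receptor MET was 34.8 on LNCaP and between 449 and 608.6 on the other arrays, and IL6R was 149 on LNCaP against 46.3 on the array labelled LNCaP-AI. These are levels of RNA, and shedding itself was not measured.

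Inhibitors other than serpins were measured as 2 lists. Of 12 tissue inhibitors of metalloproteinases and related inhibitors 9 were measured; 3 of 7 past the filter were past 2-fold higher on PC3-L than on PC3-H and 2 lower, and 3 of 6 were higher and 1 lower in the LNCaP pair. TIMP1 was 378 on PC3-H against 998 on PC3-L, and 46.4 on LNCaP against 848 on the array labelled LNCaP-AI. TIMP2 was 501 on PC3-H against 413 on PC3-L, and 179 on LNCaP against 1046 on the array labelled LNCaP-AI. Both inhibit metalloproteinases, TIMP1 also ADAM10, and both were lowest on LNCaP. TFPI2 was 450 on PC3-H against 4768 on PC3-L, and 30.7 on LNCaP against 1424 on the array labelled LNCaP-AI, while the related TFPI was low on PC3-H alone (32.0, against 155 on PC3-L). SLPI, an inhibitor of neutrophil elastase and of CTSG, was 1393 on PC3-H, 145 on LNCaP and 29.1 on both other arrays.

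Cystatins, which block cysteine cathepsins, were past 2-fold in 1 of 8 in the PC3 pair (background 12.3%) and 1 of 7 in the LNCaP pair (background 10.6%), near the background in each. CSTB, the cytosolic stefin B, was 1049 on PC3-H against 1945 on PC3-L, and 354 on LNCaP against 1460 on the array labelled LNCaP-AI. LNCaP was the low array, as for CTSC. CST6, a secreted cystatin that also blocks legumain, was 283 on PC3-H and between 61.8 and 82.6 on the other 3 arrays.

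**Figure D5:**
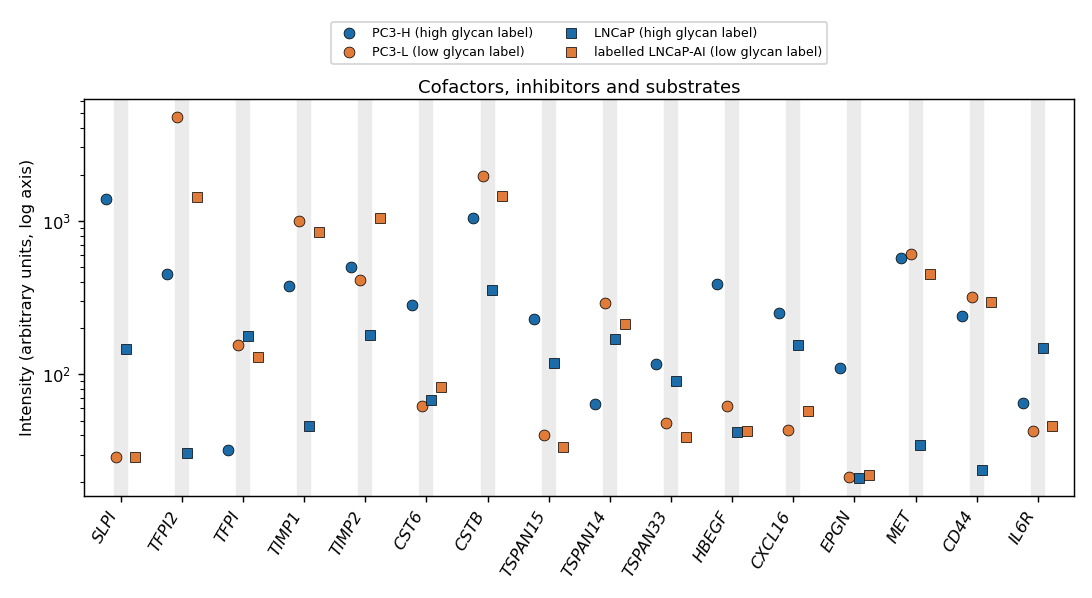
Intensity (log axis, arbitrary units) of the cofactors, inhibitors and substrates with the largest differences past 2-fold in each pair; circles are PC3 cultures and squares the cultures labelled LNCaP, blue has the high and orange the low glycan label. TSPAN15, TSPAN33, CXCL16 and SLPI have both orange points below both blue ones, and TIMP1, MET and CD44 have a single low point on LNCaP.

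Of 36 other lysosomal genes listed, 17 were measured. In the PC3 pair 1 of 16 was past 2-fold, HEXA, which read 46.1 on PC3-H against 125 on PC3-L (median of the list 0.14), a share below the background of 12.3%. In the LNCaP pair 3 of 17 were higher (LAMP1, TPP1 and TFE3) and 2 lower (ASAH1 and LGMN), with a median of 0.33. LAMP1, a membrane protein of lysosomes, was 215 on LNCaP, against 473 on the array labelled LNCaP-AI. TPP1 was 123 and 284 on these 2 arrays, and ASAH1, the acid ceramidase, 167 and 70.6. TFE3, which binds E-boxes of lysosomal promoters, was 139 and 297, and TFEB, its relative, 47.2 and 46.2.

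For the plasminogen activation list 7 of 14 genes were measured, and ST14, the membrane protease matriptase, was the 1 past 2-fold in the PC3 pair (449 on PC3-H against 45.6 on PC3-L). In the LNCaP pair 4 of 6 were higher (ANXA2, S100A10, F2R and LRP1) and ST14 lower. ANXA2, which with S100A10 forms a plasminogen receptor, was 31.4 on LNCaP, against 136 on the array labelled LNCaP-AI, and S100A10 was 24.5 and 103. LRP1, which clears protease complexes, was 82.2 and 301. Among substrates of ADAMTS proteinases and fibrillin network genes, 4 of 14 were past 2-fold higher on PC3-L in the PC3 pair and 1 lower; in the LNCaP pair 7 of 14 were higher and 0 lower. VCAN, the proteoglycan versican, was 48.0 on PC3-H against 249 on PC3-L, and 27.2 on LNCaP against 1067 on the array labelled LNCaP-AI. FBN2, a fibrillin, was 27.9 on LNCaP, against 401 on the array labelled LNCaP-AI. LOX was 58.0 on PC3-H and 198 on PC3-L, and THBS1 was 2427 and 576 on these and 140 and 1702 in the LNCaP pair.

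The glycan label itself, low minus high, was fitted with limma over 11509 genes with the line as a covariate, which left 1 residual degree of freedom. The residual spread in this fit is the unlikeness of the 2 pairs, not an error between replicate cultures. For each gene limma draws it towards a spread pooled over all genes, so an SE reflects both. By limma 0 of 29 members had an adjusted p under 0.05, as did 0 of all genes (background 0%). Unadjusted, 7 of 29 members had a p under 0.05 (24.1%, background 8.81%): ADAM15, CTSZ, ADAM23, ADAM17, CTSH, ADAM19 and CTSC. The smallest adjusted p of limma was 0.286, for ADAM15, with a log2 difference of -1.73 ± 0.34 (SE, n = 4), lower in both pairs. CTSZ had -1.79 ± 0.38 and ADAM23 1.87 ± 0.40 (SE), also in the same direction in both pairs. Without the PC3-H array and without the covariate, limma called 2 of 29 members, ADAM19 and CTSC, and 280 of all genes (background 2.43%). That fit sets the pair of low-label arrays against LNCaP alone. Its residual spread comes only from the difference between those low-label arrays, where 1 of 28 members was past 2-fold. This spread too is drawn towards the one pooled over all genes, and LNCaP is assumed to vary as the low-label arrays do. With the PC3 labels exchanged, limma called 0 members and 0 of all genes, and 0 of 29 members had an unadjusted p under 0.05 (2.61% of all genes).

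Markers of other cell types were read beside the members. In the PC3 pair 3 of 5 leukocyte, 1 of 2 fibroblast, 4 of 5 endothelial and 4 of 5 Schwann and perineurial markers were past the filter. Of 11 leukocyte markers 5 were measured, of which CD14 and LYZ stayed between 25.2 and 32.1, CSF1R between 44.1 and 46.4, and NKG7 between 74.6 and 88.0. The summed intensity of all 5 was 480 on PC3-H against 805 on PC3-L, and 280 on LNCaP against 730 on the array labelled LNCaP-AI, which follows CD68, a lysosomal gene (290, 630, 102 and 553). Of 9 fibroblast markers 2 were measured, summing to between 67.3 and 76.1, and of 8 endothelial markers 5, between 192 and 219. Of 9 Schwann and perineurial markers 5 were measured, between 230 and 353 in sum, with ERBB3 past 2-fold lower in both pairs. The part of these markers in the results was not tested.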

How the data were processed

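RNA of 4 cultures was hybridised to 1 array each. The deposited values are intensity values per probe on a linear scale, from 17.6 to 11188, with medians between 39.8 and 41.2; no source used here gives how the authors summarised, corrected or normalised them. The series' design text, per the labels, names GeneSpring GX 12.6. Of 37934 probes 14952 had 1 gene symbol (39.4%), covering 14006 genes; the probe with the highest mean stood for its gene. All 37 members had 1 probe. Log2 of intensity plus 1 was used, with the filter and threshold given above. Groups came from the titles, and their glycan level from the source names. Pairs had no test, since each group had 1 array, and array number limits the precision. limma 3.58.1 (R 4.3.3) was tested on simulated data and fitted over all genes, two-sided, with Benjamini-Hochberg adjustment.

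Members and lists were chosen with earlier results of these data known. Named were members past 2-fold in either pair, the 3 with the highest mean intensity of each family, up to 3 genes past 2-fold per partner list and pair, and the 3 nearest profiles of the 3 members with the widest range; names beyond this rule complete small counts or, as for TFEB, were added after their values were seen. Alternatives were other pseudocounts (0 and 16), filters (none and the 60th percentile), quantile normalization, median centring, the mean over probes, removal of a trend over gene length and gene density (from the 10 nearest genes), exchange of the PC3 labels (for the counts over both lines and limma, added after seeing the data), and PC3-L in place of the array labelled LNCaP-AI. Protein sequences were not used here, so the planned search for the zinc-binding motif was not run, and roles of ADAMs are background knowledge.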

Additional observations from a re-analysis of the deposited data

Results flagged for a closer look

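For 4 members past 2-fold in 1 pair the low-against-high glycan difference had opposite signs in the PC3 pair and the LNCaP pair. ADAM10 had log2 differences of 1.08 and -0.38 in the PC3 and LNCaP pairs. ADAM9 had 1.45 and -0.35. ADAM8 had -1.45 and 0.29, and CTSD had -0.33 and 1.35. In each case only 1 of the 2 values was past 2-fold. The difference between pairs was not tested, since each pair is 1 array against 1.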

How the results depend on the processing

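The counts of members past 2-fold in the PC3 pair (5 higher, 3 lower), in the LNCaP pair (5 and 3) and between PC3-H and LNCaP (4 and 3) stayed within 1.5 times under the alternatives run, except that exchanging the PC3-H and PC3-L labels turned the PC3 counts into 3 higher and 5 lower by construction. In a check chosen after seeing the data, the same exchange left 5 rather than 10 members with both low-label arrays above both high-label ones. With PC3-L in place of the array labelled LNCaP-AI the LNCaP counts were again 5 and 3. The 1 member (ADAM17) past 2-fold lower on the array labelled LNCaP-AI when set against PC3-L became 0 with a pseudocount of 16, quantile normalization or the length and density trend removed. Members with both low-label arrays below both high-label ones numbered 8 of 37 with no filter, where more genes enter, and 5 of 29 with it. The share of all genes was not counted with no filter, so the 8 are not read as a result about the members. limma called 0 members, between 0 and 2 without 1 array and the covariate; over all genes it called 1 with the filter at the 60th percentile and between 0 and 280 without 1 array and the covariate (280 without PC3-H and 71 without LNCaP). Its smallest adjusted p among members ranged between 0.194 and 0.465 under the other alternatives with 4 arrays that kept the PC3 labels. With the PC3 labels exchanged, the smallest adjusted p of limma among members was 0.998. Of 156 values of the 13 named members under an alternative, 151 kept their side of 2-fold and 5 went within it, all given beside their genes: ADAM10, ADAM22 and CTSH; 0 called values changed sign. Of the other members CTSL alone gained a call, with the trend removed. In the PC3 pair 955 of all genes were higher and 419 lower, and 712 and 431 with the trend removed. The line covariate of the limma fit pairs the arrays by line label; without it limma also called 0 members, with a smallest adjusted p of 0.206. The labels give no replicate numbers by which arrays could be paired otherwise. Members near the 40th percentile, such as ADAM23 on PC3-H and CTSH on PC3-L, lie close to the floor of the arrays, which limits their folds.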
